A study of Homo sapiens with 4 samples.

Results

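Some stretches of the genome hold the ends of many chromatin loops. In MDA-MB-231 cells, a human triple negative breast cancer line, 713 such stretches, called hub bins here, were found among the 30841 bins of 25 kb that held a loop end in any library. Each GRCh37 chromosome was divided into 25 kb bins, each loop was counted at the bins that hold the midpoints of its anchors (the genomic windows at its ends), and a bin was taken as a hub bin when it held 5 or more anchor midpoints in each of the vehicle libraries. The vehicle counts therefore chose the bins, and they are given below as a description. Hi-C, which reads out how often pairs of genomic positions lie close together, had been done on these cells after 48 h with DMSO (vehicle) or with 75 nM THZ1, an inhibitor of the transcriptional kinase CDK7. The cells are labelled wild type, all libraries come from the same line, and each condition has 2 libraries that are described as technical replicates, so a p-value measures only the spread between these libraries, which may be technical. Loops had been called by HiCCUPS, the loop caller of the Juicer software, at anchor widths of 5, 10 and 25 kb. The lists held 20768 and 24219 loops in vehicle replicates 1 and 2, and 17222 and 15066 loops in THZ1 replicates 1 and 2, and the number of sequenced contacts behind each list was not analysed here.

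In interphase chromatin, the cohesin complex extrudes loops until it meets CTCF, a zinc finger protein whose binding motif has a direction. Loops are mostly held between CTCF motifs that face each other, so the strand of a motif tells to which side its loops run. A position that ends many loops can be a strong CTCF site that stops many extruding complexes, or a promoter or enhancer that contacts several regulatory elements. Hubs of the second kind are well known at genes of cell identity and at oncogenes such as MYC. THZ1 binds CDK7 covalently; CDK7 phosphorylates RNA polymerase II as part of TFIIH and activates the cell cycle kinases.

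The sequences below are CTCF core matches in hub bins, whose strand is then set beside the direction of the loops. Of the 20 hub bins with the highest vehicle counts, 6 held an exact match to the CTCF core consensus, on either strand, and 5 of the matches are printed, with the core in capitals and 15 bases on each side. Each is written 5′ to 3′ on the strand of its match, from GRCh37. The ABCC12 bin held 2 matches, and the one with the most loop anchors over it is printed.
NFYA hub bin, chr6:41034740-41034781, reverse strand: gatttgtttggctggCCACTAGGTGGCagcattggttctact
ABCC12 hub bin, chr16:48190811-48190852, reverse strand: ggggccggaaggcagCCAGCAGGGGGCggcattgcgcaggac
Hub bin without a gene on chromosome 11, chr11:127908318-127908359, reverse strand: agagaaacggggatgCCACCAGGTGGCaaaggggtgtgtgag
OSER1 hub bin, chr20:42843853-42843894, forward strand: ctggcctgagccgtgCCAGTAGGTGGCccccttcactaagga
LINC01554 hub bin, chr5:95194583-95194624, forward strand: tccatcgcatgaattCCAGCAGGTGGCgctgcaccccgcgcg

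Over the ABCC12 match, anchors of 9 and 13 loops lay in the vehicle libraries and of 7 and 5 loops in the THZ1 libraries. All 34 of these loops ran upstream, toward lower coordinates, the side to which a reverse-strand match points. Over the NFYA match, 16 of 21 loops in the 4 lists together ran upstream. The forward-strand matches of the OSER1 and LINC01554 hub bins had 7 of 7 and 16 of 21 loops running downstream. The match on chromosome 11 went the other way: it lies on the reverse strand, and 21 of its 24 loops ran downstream. A match is a stretch of letters, and CTCF binding was not measured.

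**Figure D1:**
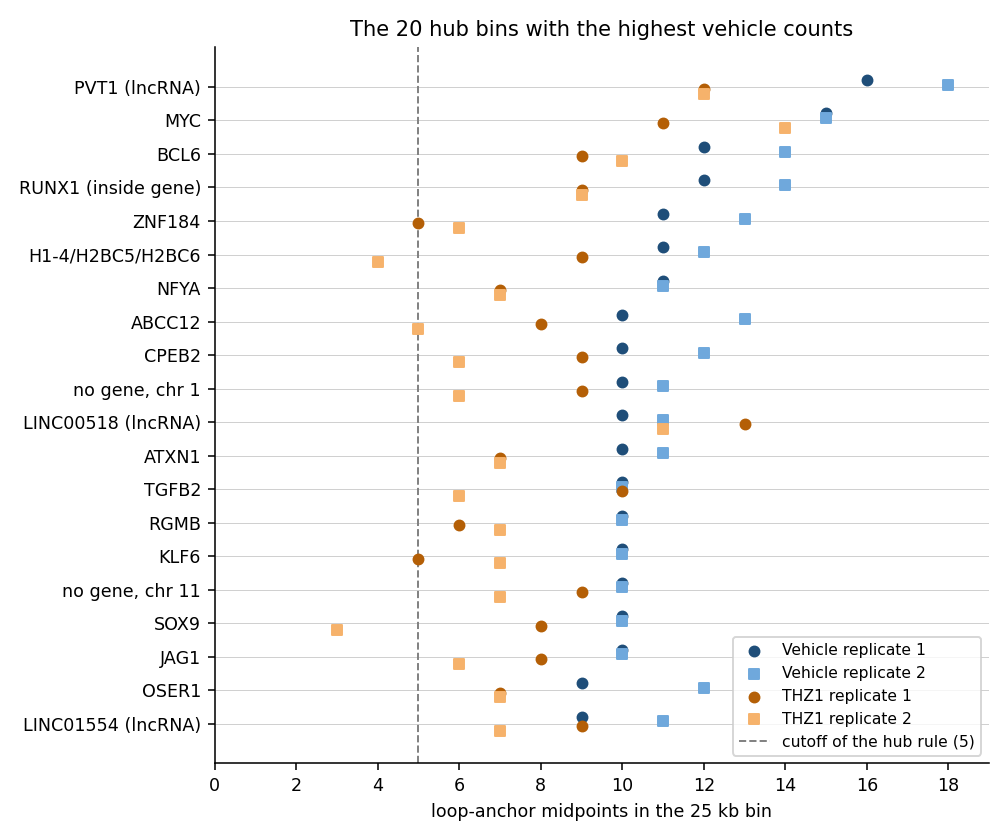
Loop-anchor midpoints (x axis, count per 25 kb bin) in each of the 4 libraries for the 20 hub bins with the highest vehicle counts (y axis, named by gene start, overlapping gene or lncRNA), with the cutoff of 5 as a dashed line. The vehicle points chose and ordered the bins; the THZ1 points lie between 3 and 14, and in the LINC00518 bin the THZ1 counts (13 and 11) are at or above both vehicle counts (10 and 11).

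The 2 densest hub bins lie on chromosome 8 at the MYC locus. The first, at 129175001 to 129200000 inside the lncRNA gene PVT1, held 16 and 18 anchor midpoints in the vehicle libraries and 12 in each THZ1 library. The second, at 128725001 to 128750000, holds the start of MYC, the transcription factor that drives growth genes, and had 15 and 15 anchors in vehicle and 11 and 14 in THZ1. Both THZ1 counts were below both vehicle counts in each of these bins. This was so in 481 of the 713 hub bins (67.5%) and in 31.1% of the 18414 bins with an anchor in both vehicle libraries. As high vehicle counts chose the hub bins, nothing is read from that gap. Of the anchors at MYC in vehicle replicate 1, 13 belonged to loops that ran downstream, toward PVT1, and 2 to loops that ran upstream. The median size of its loops was 520 and 585 kb in vehicle and 860 and 885 kb in THZ1. Of the 13 MYC loops that both vehicle libraries shared, 11 were also called in each THZ1 library.

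The next hub bins by vehicle count lie on chromosomes 3, 21 and 6. The bin at the start of BCL6 (chromosome 3, 187450001 to 187475000), a transcriptional repressor, had 12 and 14 anchors in vehicle and 9 and 10 in THZ1. All of its vehicle replicate 1 loops ran downstream, and 7 of 12 and 7 of 14 vehicle loops ended inside LPP, against 5 of 9 and 5 of 10 THZ1 loops. A bin inside RUNX1, a transcription factor of blood and epithelial cells, also had 12 and 14 anchors in vehicle and had 9 and 9 in THZ1. On chromosome 6, the bin of ZNF184, a zinc finger gene, had 11 and 13 anchors in vehicle and 5 and 6 in THZ1. The bin of the histone genes H1-4, H2BC5 and H2BC6 in the same region had 11 and 12, and then 9 and 4. In each bin named in this paragraph both THZ1 counts were below both vehicle counts, as in 67.5% of all hub bins, and the vehicle counts chose them. In the histone bin the THZ1 libraries lay farther apart than the vehicle libraries.

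Other hub bins among the 20 hold starts of NFYA, a subunit of the CCAAT-binding factor (11 and 11 anchors in vehicle, 7 and 7 in THZ1), of the Notch ligand JAG1 (10 and 10, then 8 and 6) and of the growth factor TGFB2 (10 and 10, then 10 and 6). SOX9, a transcription factor of progenitor cells, had 10 and 10 anchors in vehicle and 8 and 3 in THZ1, and KLF6, a zinc finger transcription factor, had 10 and 10 and then 5 and 7. The bin at the lncRNA genes LINC00518 and MIR5689HG (chromosome 6, 10425001 to 10450000) differed from these, with 10 and 11 anchors in vehicle and 13 and 11 in THZ1. Its loops were long, with medians of 1100, 1175, 1450 and 1310 kb in the order of the libraries, and all loops of vehicle replicate 1 ran upstream. Of all 18 hub bins with 10 or more anchors in both vehicle libraries, 16 still had 5 or more in both THZ1 libraries.

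Among the bins that kept the fewest anchors, the start of AHNAK, which encodes a very large scaffold protein, had 6 and 5 anchors in vehicle and 0 and 0 in THZ1. A bin inside the lncRNA gene LINC00578 had 5 and 5 and then 0 and 0, and these were the 2 hub bins with no anchor in either THZ1 library. A bin inside MARK4, a microtubule-affinity kinase gene, had 5 and 5 and then 0 and 1. The start of PPP1R12A, a myosin phosphatase subunit, had 6 and 7 and then 1 and 1. At the other end, a bin inside ABL1, a tyrosine kinase gene, had 5 and 5 anchors in vehicle and 6 and 6 in THZ1, and the bin of HERC3, PIGY and PYURF had 6 and 6 and then 7 and 7. The start of FCMR also had 6 and 6 and then 7 and 7. These bins were picked as the ends of the order of the ratio and lie near the cutoff, where 1 anchor changes the ratio much.

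Hub bins held a start of a protein-coding gene in 325 of 713 bins, 45.6% (95% Wilson interval 42.0 to 49.3%, for counting error only). Bins with 1 to 4 anchors in both vehicle libraries did so in 35.7% (35.0 to 36.5%), and all sequenced 25 kb bins in 14.0%. A start of a lncRNA gene was present in 33.8% of hub bins (30.4 to 37.4%) and in 23.9% of bins with 1 to 4 anchors (23.3 to 24.6%). The order was the other way for gene bodies: 69.6% of hub bins (66.1 to 72.8%) overlapped a protein-coding gene, against 74.6% (74.0 to 75.3%) of bins with 1 to 4 anchors. The share with a gene start was thus higher in hub bins and the share overlapping a gene lower, with intervals that did not overlap. A CTCF core match was present in 23.7% (20.73 to 26.96%) of hub bins, in 20.1% (19.49 to 20.71%) of bins with 1 to 4 anchors, and in 8.82% of all sequenced bins, so the first 2 intervals nearly met. These are shares of bins of a single genome and carry no test.

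Of all protein-coding gene starts in sequenced bins, 441 of 20071 (2.20%) lie in hub bins. Of 76 genes on 9 lists that fit the line and the drug, 11 do. The list of oncogenes of triple negative breast cancer has 7 of its 9 genes there, and was drawn up knowing loci of these data, so its share is no independent evidence. Beside MYC and SOX9, EGFR, a growth factor receptor, had 6 and 6 anchors in vehicle and 2 and 2 in THZ1. CCND1, the cyclin of the G1 phase, had 8 and 7 and then 3 and 4. CAV1, which builds caveolae, had 7 and 5 and then 4 and 1. The receptor gene MET had 5 and 6 and then 4 and 4, and CD44, an adhesion receptor, had 5 and 6 and then 3 and 3. In each of these 5 bins, both THZ1 counts were below both vehicle counts, as in 67.5% of all hub bins, and the vehicle counts chose them.

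The other lists had at most 2 genes there. Of the AP-1 genes, 2 of 9 start in hub bins: FOSL2 (7 and 7 in vehicle, 6 and 6 in THZ1) and JUN (5 and 5, then 2 and 4). Of the mesenchymal genes, SNAI2, a repressor of epithelial genes, was in a hub bin (6 and 7, then 5 and 7), and its THZ1 counts overlapped those of vehicle. Of the YAP and TEAD genes, YAP1, a coactivator of growth genes, was in a hub bin (6 and 7, then 6 and 4). None of the 8 condensin genes, 11 cohesin and CTCF genes, 9 genes of the CDK7 complex and transcriptional kinases, 10 epithelial and luminal genes and 2 housekeeping genes starts in one, read beside the 2.20% of all gene starts. Over all lists, 14 genes start in bins without an anchor in any library.

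Hub bins were unevenly placed. Chromosome 6 held 93 of them, 7.46% of its bins with an anchor in both vehicle libraries, while chromosome 22 held 2, or 0.733%. Windows of 2 Mb with the most hub bins had 8 each, at 26 to 28 Mb and 10 to 12 Mb of chromosome 6 and at 56 to 58 Mb of chromosome 5. The window at 26 to 28 Mb contains the large histone gene cluster. Its hub bins together had 58 and 71 anchors in vehicle and 41 and 28 in THZ1, a ratio of the sums of 0.535. The window on chromosome 5 had 51 and 52 and then 47 and 43, a ratio of 0.874. Whether dense stretches differ beyond the spread between libraries was not tested. By chromosome, the ratio ran from 0.536 on chromosome 19 to 0.746 on chromosome 2.

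Hub bins were separate points more than broad regions: 697 of 713 had no neighboring hub bin, and no run was longer than 2. Many were joined to another hub bin by a loop, 61.0% and 60.7% in vehicle and 53.7% and 51.8% in THZ1. Loops between hub bins numbered 434 and 441 in vehicle and 333 and 309 in THZ1. The largest group of bins joined in this way had 9 members in both vehicle libraries and reached from 26150001 to 28325000 on chromosome 6. In THZ1 replicate 1 it again had 9 members, from 26025001 to 28325000. In THZ1 replicate 2 the largest group had 8 members and lay on chromosome 5, from 56575001 to 57775000.

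In all 713 hub bins together, anchor midpoints numbered 4321 and 4607 in vehicle and 3152 and 2826 in THZ1. The mean per bin was 6.06 and 6.46 in vehicle and 4.42 and 3.96 in THZ1. In 650 hub bins the sum over the THZ1 libraries was below that over the vehicle libraries, in 27 it was equal and in 36 higher. Both THZ1 counts were above both vehicle counts in 3 hub bins, beside 2.61% of the bins with an anchor in both vehicle libraries. At least 5 anchors remained in 319 hub bins of THZ1 replicate 1 and in 242 of THZ1 replicate 2. Because the rule takes bins for high vehicle counts, part of this difference is built into the choice, and it carries no test. At the cutoff, the 397 hub bins with 5 anchors in the lower vehicle library had means of 5.27 and 5.63 in vehicle and 3.71 and 3.33 in THZ1, and the 557 bins just outside, with 4 in 1 vehicle library and at least 5 in the other, had 4.42, 4.94, 3.26 and 2.83.

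As a share of all anchor midpoints of a library, hub bins held 10.4% and 9.51% in vehicle and 9.15% and 9.38% in THZ1. The THZ1 lists were shorter as a whole, and the anchors of hub bins made up a nearly like share of each. Bins chosen in vehicle replicate 1 alone show how far counts fall back without a drug. The 1031 bins with 5 or more anchors there averaged 5.80 there and 5.56 in the other vehicle library, and 4.01 and 3.57 in the THZ1 libraries. Their share of all anchors was 14.4% in the choosing library, 11.8% in vehicle replicate 2, and 11.99% and 12.2% in THZ1, so relative to list length the THZ1 libraries held no less there than the vehicle library that took no part in the choice. For the 1475 bins chosen in vehicle replicate 2, the share was 17.9% there, 16.3% in vehicle replicate 1, and 15.3% and 15.5% in THZ1. The log2 ratio of the THZ1 share to that of the vehicle library not used in the choice was 0.034 with the first and -0.086 with the second chooser, so its sign depended on which library chose.

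**Figure D2:**
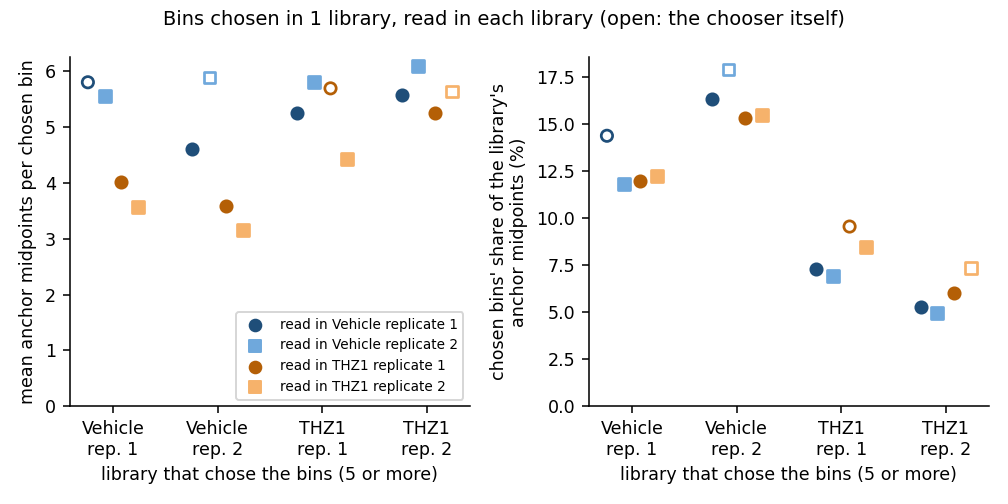
Bins with 5 or more anchor midpoints in 1 library (x axis, the choosing library), read in each of the 4 libraries, as the mean count per bin (left) and as a percentage of all anchor midpoints of the reading library (right); open symbols are the choosing library. Means are lower in THZ1 for bins chosen in vehicle, while shares in THZ1 (11.99 and 12.2%) lie beside that of the other vehicle library (11.8%) for bins chosen in vehicle replicate 1.

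The same cutoff was also applied to each library on its own, which is a stricter choice in the shorter THZ1 lists. It gave 1031 and 1475 bins in vehicle and 579 and 394 in THZ1, means of 1253 ± 314 and 486.5 ± 131 (SD, n = 2) and a ratio of 2.58, while the lists of loops differed 1.39-fold. The exact two-sided permutation test gave p = 0.333, the smallest value that 2 against 2 libraries allow. Bins with 10 or more anchors numbered 20 and 36 in vehicle and 5 and 5 in THZ1. When every list was held to the 15066 loops of the shortest, taken by the lowest donut FDR, the bins with 5 or more numbered 541 and 559 in vehicle and 447 and 394 in THZ1. The groups still did not overlap, and the log2 ratio was -0.39 in place of -1.36. The share of the 713 hub bins that reached the cutoff in both THZ1 libraries was 27.5% (196 bins), and these made up 76.0% of the 258 bins that reached it in both.

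Among loops called in both vehicle libraries, those at hub bins were called again in THZ1 about as often as others. A loop counted as called again when both anchor midpoints lay within 20 kb. Of the 3252 loops of vehicle replicate 1 that had an anchor in a hub bin and were also called in vehicle replicate 2, 70.3% (95% Wilson interval 68.7 to 71.8%) were called in THZ1 replicate 1 and 64.9% (63.3 to 66.5%) in THZ1 replicate 2. Of the 12250 other loops called in both vehicle libraries, 70.0% (69.2 to 70.8%) and 64.0% (63.1 to 64.8%) were. Loops with both ends in hub bins stood somewhat higher, with 79.1% (74.9 to 82.8%) and 75.4% (71.0 to 79.4%) of 407 loops. Such loops were also longer, with vehicle medians of 285 and 290 kb against 125 and 125 kb for loops with no end in a hub bin. At 90 kb or less, 75.0% and 64.6% of 48 such loops were called again, against 58.8% and 51.8% of other loops. Between 200 and 500 kb the shares were 78.5% and 77.3% against 81.1% and 76.4%. Both THZ1 lists held 57.0% of the 3252 hub loops, and neither held 21.8%. The likeness depended on requiring both vehicle libraries. Over all loops of vehicle replicate 1 alone, 60.1% of hub loops and 54.4% of others were called again (means of the THZ1 libraries), and over those of vehicle replicate 2 alone, 57.7% and 49.3%.

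For loops in both vehicle libraries, hub and other loops differed by size, where size is the distance between the anchor starts. Among loops of 90 kb or less, 62.2% and 57.5% of hub loops were called again, against 58.8% and 51.8% of other loops. Between 90 and 200 kb the order was reversed, with 67.5% and 61.5% of hub loops against 73.4% and 67.8% of others. The same held between 200 and 500 kb, with 73.4% and 68.1% of hub loops against 81.1% and 76.4% of others. Over 500 kb the shares were 81.4% and 75.9% against 84.5% and 78.3%, with overlapping intervals, and over 1000 kb 84.1% and 81.1% of 132 hub loops against 84.0% and 77.2% of 219 others, so the longest loops showed no such gap. In each of these classes up to 500 kb, the Wilson interval of hub loops did not overlap that of others in the same THZ1 library. The exception was the shortest class in THZ1 replicate 1 (58.9 to 65.3% against 57.4 to 60.1%). These intervals and those given above for all sizes cover counting error alone and carry no test. They treat loops as separate, although loops of a hub bin share it. The vehicle calls that chose the hub bins also gave the loops compared.

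Hub loops were longer than other loops in every library. Loops with an anchor in a hub bin numbered 3887 and 4166 in vehicle and 2819 and 2517 in THZ1, with a median size of 210 and 210 kb in vehicle and 255 and 250 kb in THZ1. The medians of all other loops were 125 and 125 kb in vehicle and 190 and 195 kb in THZ1, so the medians of both kinds were larger in both THZ1 libraries (exact two-sided permutation p = 0.333 for hub loops, the smallest possible). Loops of 90 kb or less made up 25.5% and 24.2% of hub loops in vehicle and 20.3% and 21.1% in THZ1. Among other loops the share was 39.7 ± 0.398% in vehicle and 26.9 ± 0.658% in THZ1 (SD, n = 2). The distance between the kinds of loop was therefore smaller in THZ1: hub minus other was -14.8 ± 0.556 percentage points in vehicle and -6.20 ± 1.17 in THZ1 (exact two-sided permutation p = 0.333).

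**Figure D3:**
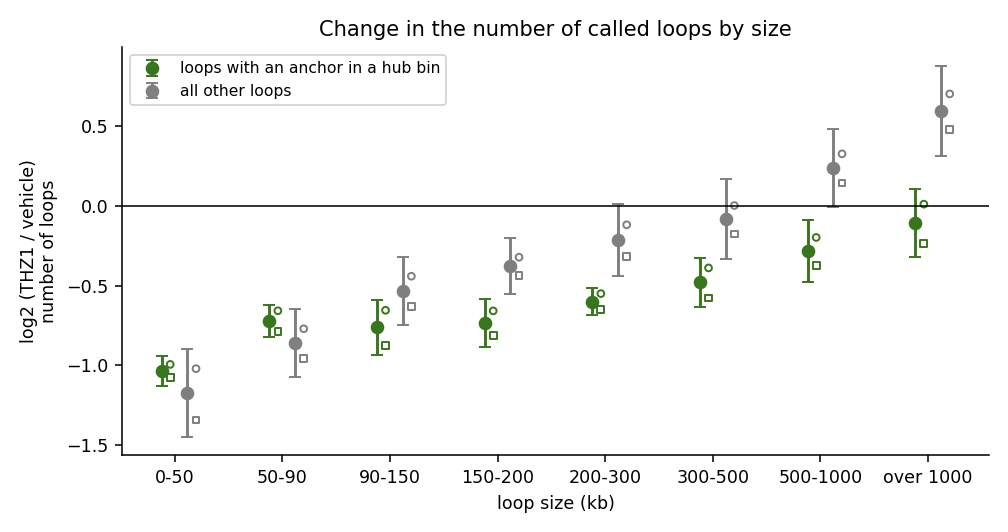
Log2 ratio of the mean number of called loops in THZ1 to that in vehicle (y axis) by loop size in kb (x axis), for loops with an anchor in a hub bin (green) and all other loops (grey); filled points are the ratio, bars combine the SDs of the log2 counts of both conditions (n = 2 each), and small open symbols are each THZ1 library against the vehicle mean. The grey points go from -1.17 to 0.60 with size and the green ones from -1.04 to -0.11.

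By number, hub loops of 90 kb or less were 992 and 1007 in vehicle and 573 and 530 in THZ1, a log2 ratio of -0.86, while those of other loops had -1.01. From 90 to 200 kb the ratios were -0.75 for hub loops and -0.48 for others. From 200 to 500 kb they were -0.54 and -0.15. Over 500 kb, hub loops numbered 708 and 812 in vehicle and 689 and 601 in THZ1 (-0.24), but other loops 1712 and 2108 in vehicle and 2551 and 2232 in THZ1 (0.32). Long loops outside hub bins were more numerous in each THZ1 library than in either vehicle library, and those at hub bins were not. Since the hub bins were chosen for many vehicle loops, the same was read in the vehicle library that took no part in the choice. Long hub loops then numbered 919 in the other vehicle library and 819 and 726 in THZ1 for bins chosen in vehicle replicate 1 (-0.25), and 943 against 1012 and 889 for bins chosen in vehicle replicate 2 (0.011), so with the second chooser they were not fewer in THZ1. With bins chosen in vehicle replicate 1, hub minus other over 500 kb was -0.43 on the log2 scale, and with bins chosen in vehicle replicate 2 it was -0.49. For loops of 90 kb or less the same difference was 0.32 and 0.08, from 90 to 200 kb -0.09 and -0.21, and from 200 to 500 kb -0.21 and -0.36. The signs held with both choosers in each class. The 0.08 was below the SDs of the log2 THZ1 counts (0.17 for hub and 0.16 for other loops). So was the -0.09 (0.11 and 0.12). Over all sizes the difference was 0.02 and -0.13, so there the sign depended on the chooser.

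Hub bins also differed in the side to which their loops ran. By the vehicle anchors, 149 hub bins had at least 80% of their loops running downstream, 152 at least 80% running upstream, and 412 had loops on both sides. The matches to the CTCF core, which the rule did not use, followed these classes. In bins of the first class, 36 matches lay on the forward and 6 on the reverse strand, and in bins of the second class 9 and 40. In bins with loops on both sides, 55 matches were forward and 47 reverse. This order was not particular to hub bins. Anchors at the lower-coordinate end of a loop, with matches on 1 strand only, were compared in vehicle replicates 1 and 2. Of those outside hub bins, 84.3% and 83.0% had forward matches, against 71.1% and 71.4% of those in hub bins. In THZ1 the shares were 87.3% and 88.7% against 77.8% and 75.2%. At least 1 match was found in 37, 44 and 88 bins of the 3 classes, so most bins of each class had none, and the absence of these letters says nothing about CTCF there. The directions were kept in THZ1: the share of downstream anchors in the first class was 91.1% and 90.6% in vehicle and 90.9% and 91.8% in THZ1, and in the upstream class 8.24% and 7.90% against 7.65% and 7.06%.

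**Figure D4:**
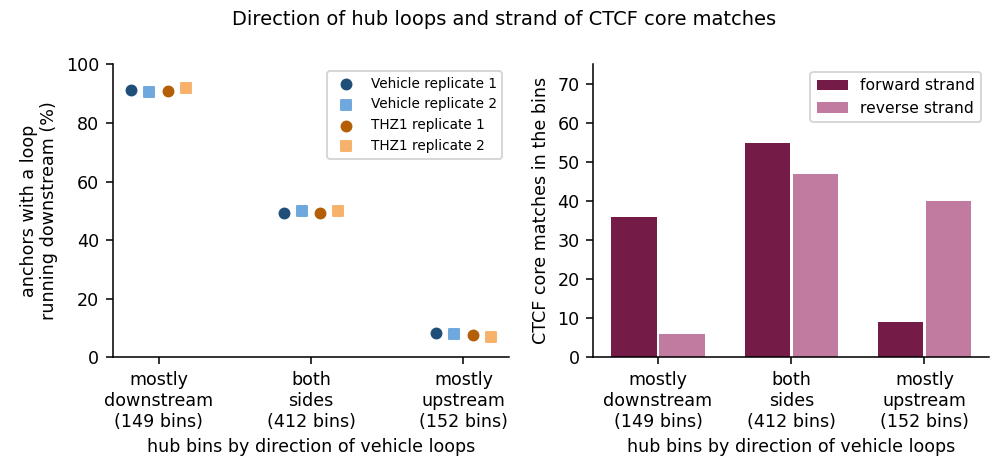
Left, percentage of hub anchors whose loop runs downstream (y axis) in each library, for hub bins grouped by the direction of their vehicle loops (x axis); right, number of CTCF core matches in these bins by strand. The 4 libraries lie within 2 percentage points of each other in every class, and forward matches number 36, 55 and 9 against 6, 47 and 40 reverse ones.

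Contact domains had been called separately by Arrowhead, Juicer's domain caller, on a 10 kb grid. A domain boundary lay in 14.4% and 18.4% of hub bins in vehicle and in 29.2% and 26.6% in THZ1. In bins with 1 to 4 anchors in both vehicle libraries, the shares were 6.18% and 7.28% in vehicle and 12.5% and 12.01% in THZ1. In all sequenced bins, boundaries were likewise found more often in THZ1 (4.22% and 3.99%) than in vehicle (2.07% and 2.42%). Boundaries were thus more frequent at hub bins than at other anchored bins in each library, and more frequent in both THZ1 libraries in each kind of bin, while the number of hub anchors was lower.

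The strength of single loops was compared where the same anchors were called in all 4 libraries, since the rule used the number of loops and not their strength, although a loop must be strong enough to be called. Strength is the ratio of the contacts observed at the loop to those expected from its donut, the ring of pixels around it. In the edgeR quasi-likelihood fit over 2620 loops, 720 were weaker in THZ1 at an adjusted p under 0.05 (27.5%) and 1 was stronger. Of the 575 loops with an anchor in a hub bin, 193 were weaker (33.6%) and 0 stronger. At an unadjusted p under 0.05, 293 were weaker and 0 stronger. Their median log2 change was -0.45, beside -0.41 over all tested loops. Hub loops of 90 kb or less were weaker in 85 of 166 cases (51.2%, median -0.53), and longer ones in 108 of 409 (26.4%, median -0.43). The same order was seen in other loops, with 277 of 757 weaker at 90 kb or less (36.6%) and 250 of 1288 above (19.4%).

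Among the hub loops, the median log2 change of the expected count was 0.33 and that of the observed count -0.14. Both are counts not scaled for sequencing depth, which was not analysed here, so only their ratio is read. The choice of the expected count mattered much. With the bottom-left neighborhood 159 hub loops were weaker, but with the horizontal or the vertical neighborhood 16 each, and with the observed counts alone, scaled by TMM, 42 were weaker and 4 stronger. DESeq2 called 7. The median log2 change of hub loops moved less than the calls, to -0.36 with the horizontal and -0.33 with the vertical neighborhood and to -0.46 in DESeq2, and was -0.12 with observed counts alone. Without vehicle replicate 1, edgeR called 58 hub loops weaker, and without vehicle replicate 2, THZ1 replicate 1 or THZ1 replicate 2 it called 0, with 198, 212 and 209 at an unadjusted p under 0.05. The median change stayed between -0.47 and -0.45 when any library was left out.

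**Figure D5:**
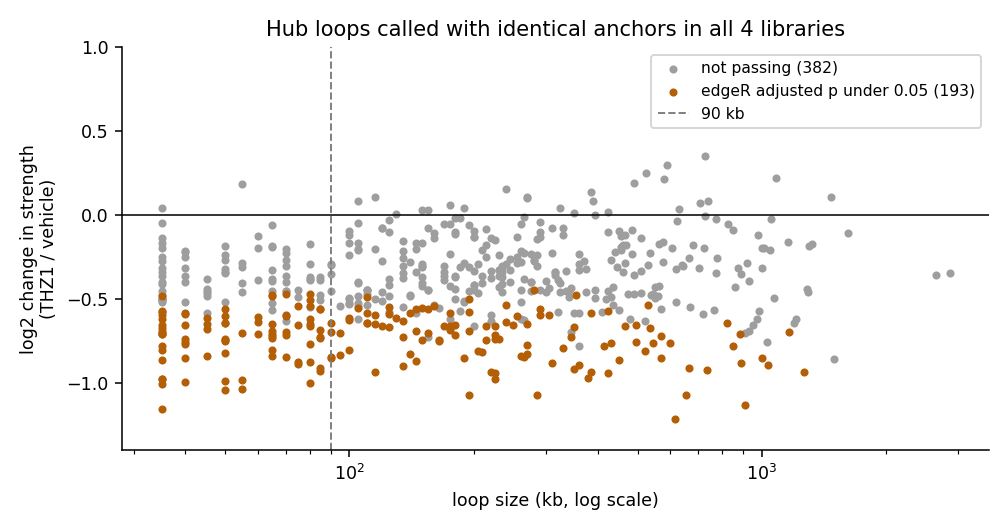
Log2 change in loop strength with THZ1 (y axis, observed over donut expected contacts, fitted by edgeR) against loop size in kb (x axis, log scale) for the 575 hub loops with identical anchors in all 4 libraries; orange points passed the adjusted threshold. Of these loops 547 lie below 0, and the 193 that passed do so on both sides of 90 kb.

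The weaker hub loop with the largest change spanned 615 kb on chromosome 8 (132255001 to 132875000). It had 25 and 23 contacts in vehicle and 23 and 20 in THZ1, over donut values of 1.03, 1.26, 2.55 and 2.24, for a log2 change of -1.21 ± 0.252 (SE, edgeR adjusted p = 0.00405). As counts not scaled for depth, its observed contacts hardly differed and its expected ones were higher in THZ1. A loop of 35 kb on chromosome 18 (20010001 to 20050000), with both ends in hub bins without a gene, had 76 and 69 contacts in vehicle and 44 and 46 in THZ1 (-1.15 ± 0.183, edgeR adjusted p = 0.00147). There, the observed contacts, also not scaled for depth, were lower in THZ1.

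Of the 9 loops that could be compared at hub bins of listed genes, 3 were weaker, near the 33.6% of all hub loops, namely both loops at MYC and that at CAV1. The loop from 127835001 to the MYC bin spanned 910 kb between hub bins and had 39 and 32 contacts in vehicle and 28 and 30 in THZ1 (-1.13 ± 0.241, edgeR adjusted p = 0.00414). The loop of 450 kb from the MYC bin to the PVT1 hub bin had 40 and 40 contacts in vehicle and 23 and 28 in THZ1 (-0.86 ± 0.258, edgeR adjusted p = 0.0200). The CAV1 hub loop of 270 kb had 93 and 117 contacts in vehicle and 93 and 83 in THZ1 (-0.77 ± 0.159, edgeR adjusted p = 0.00391). The CCND1 hub loop of 590 kb had 33 and 38 contacts in vehicle and 50 and 67 in THZ1, but its expected counts were higher too, and it did not pass (0.30 ± 0.209, edgeR adjusted p = 0.281). The loops at EGFR, MET and YAP1 did not pass either, with log2 changes of -0.33, -0.37 and -0.50, and nor did the FOSL2 loops, at -0.46 and -0.27. No loop with the same anchors in all libraries was available for SOX9, CD44, JUN or SNAI2.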

How the data were processed

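Arima-HiC libraries of MDA-MB-231 cells (vehicle or THZ1, 2 technical replicates each) were processed by the authors with Juicer 1.6 (juicer_tools 1.19.02 in the file headers). Settings of HiCCUPS and Arrowhead are not given in the sources used here. In the deposited loop lists, observed values are raw contact counts per loop, expected values are a signal on the same scale from 4 local neighborhoods, and FDR values are q-values. The authors' tables of unique loops hold their own comparison and were not used. The labels name hg19, and none of 61322 anchors lay beyond a chromosome end or fully in unsequenced bases of GRCh37. The hub bins, gene lists and tests were chosen with earlier results of these data known.

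Lists were read with Python 3.11.15, pandas 2.3.3, numpy 2.4.6 and scipy 1.17.1, groups of joined bins were found with networkx 3.6.1, and figures drawn with matplotlib 3.10.9. Genes are protein-coding and lncRNA genes of GENCODE lifted to GRCh37. The CTCF core consensus was searched exactly on both strands. Named bins are the 20 with the highest lower vehicle count, 5 with the lowest and 5 with the highest ratio of THZ1 to vehicle sums (ties and unnamed bins are given in part), and bins with a start of a listed gene. Library values were compared by exact two-sided permutation over 6 splits. Strength was fitted in edgeR 4.0.16 (R 4.3.3) on observed counts, offset by the log of the donut value, with p-values adjusted over 2620 loops by Benjamini-Hochberg (4 with a donut value under 0.01 left out), and in DESeq2 1.42.0 as an alternative. The scripts were tested on simulated data. Sequencing depth per library was not analysed here, and observed counts at loops are not library sizes.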

Additional observations from a re-analysis of the deposited data

How the results depend on the processing

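A cutoff of 4 gave 1653 hub bins, a cutoff of 8 gave 59 and an FDR at or below 0.01 gave 402. The lower number of bins at the cutoff in THZ1 kept its direction under every alternative run; with 15066 loops in each list, the log2 ratio of hub anchors was -0.29. The log2 ratio of the THZ1 share to that of the vehicle library not used in the choice was 0.062 at a cutoff of 8, 0.069 with 5 and 10 kb anchors only and -0.086 with vehicle replicate 2 as the chooser; with THZ1 replicate 1 or 2 as the chooser, vehicle against the other THZ1 library gave -0.25 and -0.23. The share of hub loops called again was 78.7% with matching within 50 kb, 46.0% with identical anchors and 63.6% at the stricter FDR, and ran from 57.7% to 70.3% when 1 library was left out. The CTCF share was 30.5% at a cutoff of 8 and 20.5% for matches under 5 or 10 kb anchors. Against 193 weaker hub loops, the horizontal and the vertical neighborhood each called 16, observed counts alone 42 and DESeq2 7, and leaving out 1 library gave from 0 to 58. The replicate block gave 204; deviations of same-numbered libraries had a correlation of 0.02 across loops, so the numbers were not taken to pair the libraries. The lists of equal length, vehicle replicate 2 as the chooser and the size classes read with either chooser were added after the values were seen. The causes were not tested. In all, 66 alternatives stayed within the limits set and 24 did not.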

Other observations

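Some bins reached the cutoff in both THZ1 libraries but not in both vehicle libraries. Of the 258 bins with 5 or more anchors in both THZ1 libraries, 62 were no hub bins, and 38 of these had 5 or more in 1 vehicle library. Together the 62 bins had 246 and 268 anchors in vehicle and 340 and 336 in THZ1. In 26 of them both THZ1 counts were above both vehicle counts, beside 2.61% of the 18414 bins with an anchor in both vehicle libraries. High THZ1 counts chose the 62 bins, which partly fixes both values, so nothing is read from them. The bin at the starts of GNAI3, a G protein subunit gene, and GPR61 (chromosome 1, 110075001 to 110100000) had 3 and 5 anchors in vehicle and 7 and 7 in THZ1. The bin of TCP11 had 4 and 4 and then 8 and 6, and that of COQ2, an enzyme of coenzyme Q synthesis, 3 and 3 and then 5 and 6. The largest ratio was in a bin without a gene on chromosome 10 (61375001 to 61400000), with 1 and 3 and then 7 and 6. The loops of all 62 bins had medians of 285 and 275 kb in vehicle and 350 and 350 kb in THZ1.

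The cutoff of 5 chose 579 and 394 bins in the shorter THZ1 lists and 1031 and 1475 in the vehicle lists. It is thus a stricter choice in THZ1, and the bins chosen in the 2 conditions are not matched sets. The 579 bins with 5 or more anchors in THZ1 replicate 1 held 9.56% of the anchors of that library, 8.49% in THZ1 replicate 2, and 7.32% and 6.94% in vehicle. The 394 bins chosen in THZ1 replicate 2 held 7.36% there, 6.01% in THZ1 replicate 1, and 5.28% and 4.96% in vehicle. With either THZ1 chooser, both vehicle shares were below that of the THZ1 library not used in the choice, while with vehicle choosers the THZ1 shares lay on either side of the other vehicle library. The difference was not tested.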
